A study of Homo sapiens with 6 samples.

Results

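The transcripts described here are 10 genes of the NRF2 (nuclear factor erythroid 2-related factor 2) antioxidant response and of glutathione metabolism. They were taken by symbol from a count table of 26410 rows (NFE2L2, KEAP1, HMOX1, NQO1, GCLC, GCLM, GSR, GPX1, GPX4 and CHAC1), and all 10 had counts and passed the filter that left 13014 genes for testing. The cells were Kasumi-1, an established line of human acute myeloid leukaemia with the RUNX1::RUNX1T1 fusion, and bulk RNA was sequenced. In the control group (3 libraries) the cells received a scrambled hairpin, and in the shPHF19 group (3 libraries) a lentiviral hairpin against PHF19, an accessory subunit of Polycomb repressive complex 2. Cells of both groups were put under puromycin (2 µg/ml) 48 h after the hairpin was given, for at least 24 h. By that account every library comes from a selected, hairpin-bearing culture. Control samples carry WT as their treatment label, although the title of the series names a scrambled hairpin. A single cell line was used, and the labels do not tell how many hairpins were tried or whether replicates were separate cultures. The p-values therefore rest on the spread among the sequenced libraries, and that spread may be technical.

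NRF2, encoded by NFE2L2, is a transcription factor that KEAP1 holds in the cytoplasm and presents for degradation. When oxidants or electrophiles modify KEAP1, NRF2 accumulates, pairs with small MAF proteins and binds antioxidant response elements near genes of detoxification and of glutathione synthesis. Glutathione is the main thiol of the cell: it is built from glutamate, cysteine and glycine, spent by peroxidases, returned to its reduced form by glutathione reductase and broken down by enzymes such as CHAC1. Control of NRF2 acts largely on the protein, which RNA counts do not measure.

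The libraries held 14229878 to 16615143 counts, and levels are given as CPM (counts scaled to library size with the TMM factors of edgeR). PHF19 itself fell from 185 ± 16.1 to 37.0 ± 4.04 CPM (SD, n = 3; log2 fold change -2.32, edgeR adjusted p = 3.55e-25), in the direction of the labels. Of 11 markers of Kasumi-1 and myeloid blasts, 10 were tested, 5 higher and 3 lower in shPHF19 cells. KIT stood at means of 2939 and 3291 CPM in control and shPHF19 libraries and was not called (edgeR adjusted p = 0.0752). The 5 higher were CD34, CD33, RUNX1, SPI1 and MPO, the last at 4278 and 8394 CPM. PTPRC, ANPEP and RUNX1T1 were the 3 lower, and CD38 had at most 6 counts in any library. Of all genes tested, 60.2% passed an adjusted p of 0.05, 29.4% higher and 30.9% lower in shPHF19 cells, so a call alone does not set a gene apart here. TMM factors lay between 1.06 and 1.08 in control libraries and between 0.919 and 0.945 in shPHF19 libraries. Without them, scaled by library totals only, the median log2 change over the genes tested moved from -0.03 to -0.24, and small changes below are to be read against that shift.

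The NRF2 and glutathione genes did not move as a block. Of the 10, 2 were called higher (KEAP1 and NQO1), 2 lower (HMOX1 and GCLC) and 6 did not pass, against the 60.2% of all genes that passed. Only HMOX1 changed at least 2-fold, as did 16.6% of all genes tested. The median log2 fold change of the 10 was -0.06, beside -0.03 for all genes. The values of the groups did not overlap for 6 of the 10, beside 63.5% of all genes tested. With library totals only, the count became 1 higher and 5 lower.

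**Figure D1:**
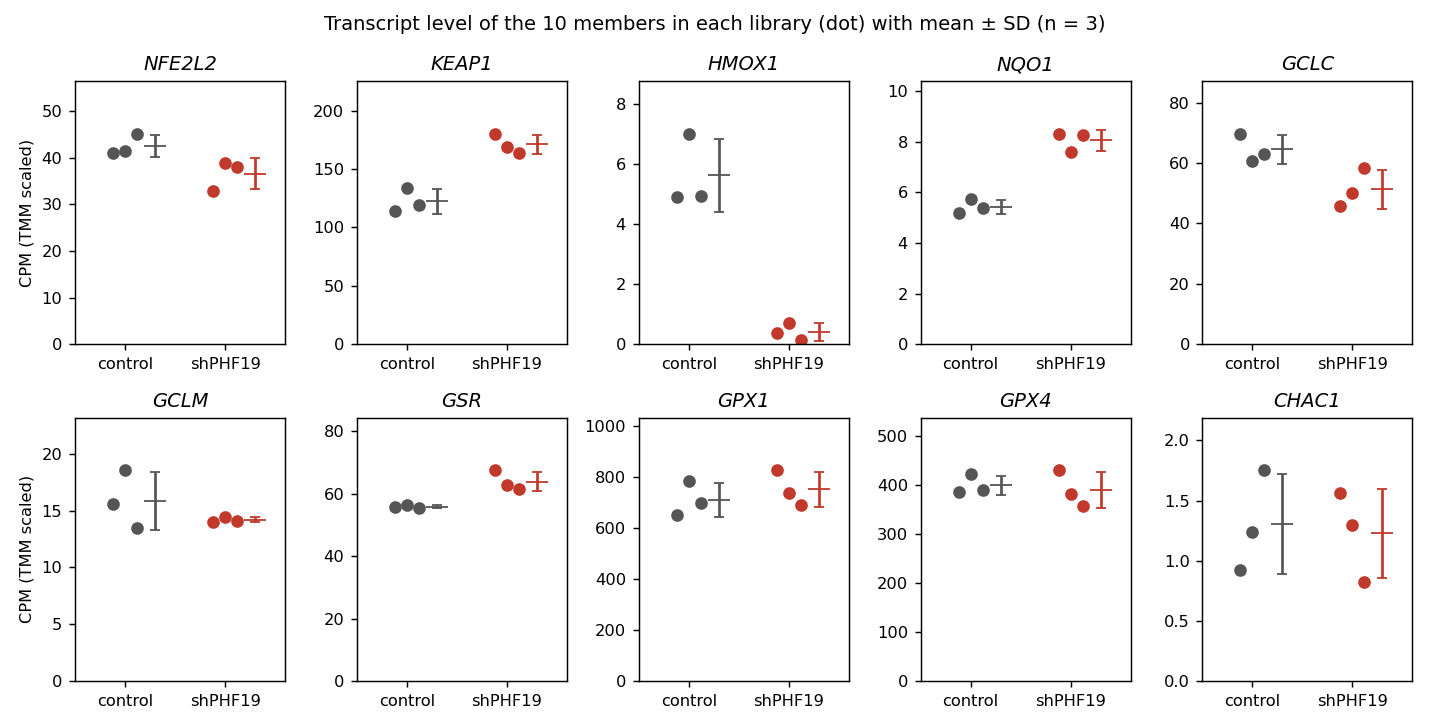
CPM (TMM scaled, linear axes from 0) of each of the 10 genes, with 1 dot per library and the mean ± SD of 3 libraries beside it, for control (grey) and shPHF19 (red). HMOX1 is near the axis in all 3 shPHF19 libraries, KEAP1 and NQO1 are higher there, and the dots of CHAC1, GPX1, GPX4 and GCLM overlap.

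Among the regulators, KEAP1 was higher in shPHF19 cells and NFE2L2 did not pass the test. KEAP1, the substrate adaptor that marks NRF2 for degradation, stood at 114, 134 and 119 CPM in the control libraries and at 180, 169 and 164 CPM in the shPHF19 libraries. Every shPHF19 value was above every control value. The log2 fold change was 0.48 (SE 0.0860; edgeR adjusted p = 4.00e-06), a rise of 1.40-fold, and the authors' deposited table gives KEAP1 a log2 fold change of 0.50 (adjusted p = 6.03e-08). Of all genes tested, 79.1% had a lower log2 fold change than KEAP1.

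NFE2L2 stood at 41.0, 41.4 and 45.2 CPM in control and at 32.8, 38.9 and 38.1 CPM in shPHF19 libraries. The groups did not overlap, but the log2 fold change of -0.21 had an edgeR adjusted p of 0.0892 and a 95% interval of -0.43 to 0.01. The call turned on the scaling: with library totals only NFE2L2 was lower (-0.42, edgeR adjusted p = 0.00134), as with upper-quartile factors (-0.32, edgeR adjusted p = 0.0115). Exons of NFE2L2 in GENCODE 29 share 54 bases with those of AGPS on the opposite strand, and no source read for this work states whether counting used strand.

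The ratio of KEAP1 to NFE2L2 counts needs no scaling between libraries. Control libraries had ratios of 2.77, 3.23 and 2.64, and shPHF19 libraries had 5.49, 4.33 and 4.30, with no overlap. The means were 2.88 ± 0.312 and 4.71 ± 0.679 (SD, n = 3; 2-sided exact permutation p = 0.1, which is as low as 3 against 3 can reach; 0.15 adjusted over 3 ratios). These ratios were chosen after the values were seen.

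Promoter windows in RefSeq (GRCh38.p14, 250 bases before to 50 after a start site) were found for 8 of the 10 genes and searched on both strands for the core of the antioxidant response element, TGACNNNGC, and for the core of the C/EBP-ATF response element, TGATGNAA. The first was present for KEAP1 and GCLM, and the second for CHAC1. HMOX1 and GSR had no window and were not searched. For the other genes an element outside the window would be missed, so no match does not mean no element. By gene, 25% of these 8 held the first core and 12.5% the second, beside 16.1% and 4.46% of all genes with a window. The windows around 3 matches are shown because KEAP1, the repressor, and GCLM, a classical target, carry the same 9 letters. Each is written on the strand of its gene with the core in capitals, and all 3 cores are the reverse complement of the motif.
KEAP1, chr19:10502784-10502812: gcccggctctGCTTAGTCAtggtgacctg
GCLM, chr1:93909446-93909474: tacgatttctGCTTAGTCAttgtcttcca
CHAC1, chr15:40953252-40953279: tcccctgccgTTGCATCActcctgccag
Distances are to the RefSeq start site of the window, which need not be the outermost start of the gene in GENCODE 29. The KEAP1 core lies 31 bases before that site, and a further match (TGACACGGC) lies 54 bases before it. The GCLM core lies 34 bases and the CHAC1 core 209 bases before their sites. In GENCODE 29 the KEAP1 and CHAC1 cores lie wholly within annotated exons, as does 1 base of the GCLM core. A match describes letters only and shows no binding.

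HMOX1 had the largest change of the 10. It encodes the inducible haem oxygenase, which opens haem to biliverdin, iron and carbon monoxide, and it lies on the plus strand of chromosome 22 (chr22:35380361-35394214, GRCh38). It stood at 4.92, 7.01 and 4.93 CPM in the control libraries and at 0.371, 0.713 and 0.138 CPM in the shPHF19 libraries. All 3 shPHF19 values were far below the lowest control value. The underlying counts were 80, 119 and 76 in control and 5, 11 and 2 in shPHF19 libraries, so the last of these lies under the 3 counts that a count of 0 allows. The log2 fold change was -3.74 (SE 0.388; edgeR adjusted p = 1.37e-11), which is 13.4-fold lower. From the summed counts (275 against 18) the ratio of control to shPHF19 was 13.6, with an exact 95% counting interval of 8.47 to 23.4 that covers counting error only. The authors' deposited table gives HMOX1 a log2 fold change of -3.63 (adjusted p = 1.09e-13). Of the 13014 genes tested, 60 fell further on the log2 scale. Without shPHF19 replicate 2 the fall was larger, at -4.44, which is a fold more than 1.5 times that of all libraries, and without the other libraries the log2 fold change was between -3.83 and -3.33.

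HMOX1 is strongly expressed in monocytes and macrophages, and monocyte markers moved in the same direction. Of 5 such markers, 4 were tested and 3 were lower, beside 30.9% of all genes tested: ITGAM (log2 fold change -3.17), FCGR1A (-1.57) and LYZ (-1.53). CSF1R did not pass (-0.26), and CD14, a defining monocyte marker, had at most 3 counts in every library. Their summed level was between 137 and 139.8 CPM in control libraries and between 43.9 and 47.96 CPM in shPHF19 libraries. In bulk RNA fewer cells of a type and less RNA per cell cannot be told apart, and the part of these markers in the HMOX1 result was not tested.

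The other genes of haem breakdown did not follow HMOX1. HMOX2, the constitutive haem oxygenase, rose from 36.6 ± 2.05 to 61.1 ± 3.55 CPM (SD, n = 3; log2 fold change 0.74, edgeR adjusted p = 3.51e-08). Its exons share 228 bases with NMRAL1 on the opposite strand. The biliverdin reductase genes BLVRA and BLVRB, which act on the product of haem oxygenase, were not called. BLVRA was at 0.12 and BLVRB at 0.024 on the log2 scale, and both were below 0 with library totals only (-0.089 and -0.18). Per kilobase of exon, HMOX2 stood at 9.66 CPM per kb and HMOX1 at 2.34 CPM per kb in control cells, and at 16.1 and 0.169 CPM per kb in shPHF19 cells.

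NQO1 moved the other way from HMOX1, although both are classical NRF2 targets. It encodes a quinone reductase that spares cells the one-electron cycling of quinones. NQO1 stood at 5.17, 5.72 and 5.38 CPM in control and at 8.32, 7.58 and 8.26 CPM in shPHF19 libraries, with no overlap between the groups. The log2 fold change was 0.57 (SE 0.197; edgeR adjusted p = 0.0115), a rise of 1.48-fold that rests on 264 and 349 counts in all. With library totals only the call was lost (0.36, edgeR adjusted p = 0.10).

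Glutathione synthesis starts with glutamate-cysteine ligase, whose catalytic subunit is GCLC and whose modifier subunit, which raises the affinity for glutamate, is GCLM. GCLC stood at 69.7, 60.8 and 63.0 CPM in control and at 45.7, 50.0 and 58.5 CPM in shPHF19 libraries. Each shPHF19 value was below each control value, the third by a small margin. The log2 fold change was -0.33 (SE 0.103; edgeR adjusted p = 0.00558), a fall of 1.255-fold that was called under every alternative run (-0.53 to -0.25). GCLM, whose promoter core is shown above, stood at 15.6, 18.6 and 13.5 CPM in control and at 14.0, 14.4 and 14.1 CPM in shPHF19 libraries. Its groups overlapped, and the log2 fold change of -0.16 was not called (edgeR adjusted p = 0.363; 95% interval -0.47 to 0.14), except with library totals only (-0.37, edgeR adjusted p = 0.0328). Relative to GCLM, GCLC counts were 4.14 ± 0.756 times as high in control libraries and 3.62 ± 0.463 times in shPHF19 libraries (SD, n = 3), with overlap (2-sided exact permutation p = 0.3; 0.3 adjusted over 3 ratios).

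GSR encodes glutathione reductase, which returns oxidised glutathione to its reduced form with NADPH. It stood at 55.8, 56.3 and 55.5 CPM in control and at 67.5, 62.8 and 61.5 CPM in shPHF19 libraries. The groups did not overlap, yet the log2 fold change of 0.19 did not pass (edgeR adjusted p = 0.0819; 95% interval -0.0020 to 0.39). DESeq2 placed it just past the threshold (0.22, adjusted p = 0.0492), whereas with library totals only the value was -0.013.

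The peroxidases that spend glutathione had the highest levels per length of the 10, and neither was called. GPX1 reduces hydrogen peroxide, and GPX4 reduces lipid peroxides within membranes and thereby holds back ferroptosis. Both are selenoproteins. GPX1 stood at 650, 783 and 697 CPM in control and at 825, 737 and 691 CPM in shPHF19 libraries, with overlapping groups. Its log2 fold change was 0.081 (edgeR adjusted p = 0.411). Its 95% interval of -0.09 to 0.25 corresponds to a change of -5.86% to 18.9%. GPX4 stood at 385, 421 and 389 CPM in control and at 429, 380 and 357 CPM in shPHF19 libraries, again overlapping, and its log2 fold change was -0.036 (edgeR adjusted p = 0.729; 95% interval -0.20 to 0.13, or -13.1% to 9.48%). With library totals only GPX4 was called lower (-0.24, edgeR adjusted p = 0.00833) and GPX1 was at -0.13, also below 0. GPX1 over GPX4 counts gave 1.69, 1.86 and 1.79 in control libraries and 1.92, 1.94 and 1.93 in shPHF19 libraries. Those groups did not overlap (2-sided exact permutation p = 0.1; 0.15 adjusted over 3 ratios), with a log2 difference of 0.12. GENCODE 29 gives GPX1 as a polymorphic pseudogene, and processed copies of GPX1 exist in the genome, so its level depends on how shared reads were counted.

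CHAC1, a gamma-glutamylcyclotransferase that breaks glutathione down and is induced by the transcription factor ATF4 under stress, was barely expressed. Its counts were 15, 21 and 27 in control and 21, 20 and 12 in shPHF19 libraries, or 0.922, 1.24 and 1.75 CPM against 1.56, 1.30 and 0.826 CPM. The groups overlapped. The log2 fold change was -0.086 (edgeR adjusted p = 0.879), and its 95% interval of -0.97 to 0.80 allows a change of -49.1% to 74.2%, so a moderate difference was not detectable at this depth. Without control replicate 3 or shPHF19 replicate 3 the sign turned (0.18 and 0.14).

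**Figure D2:**
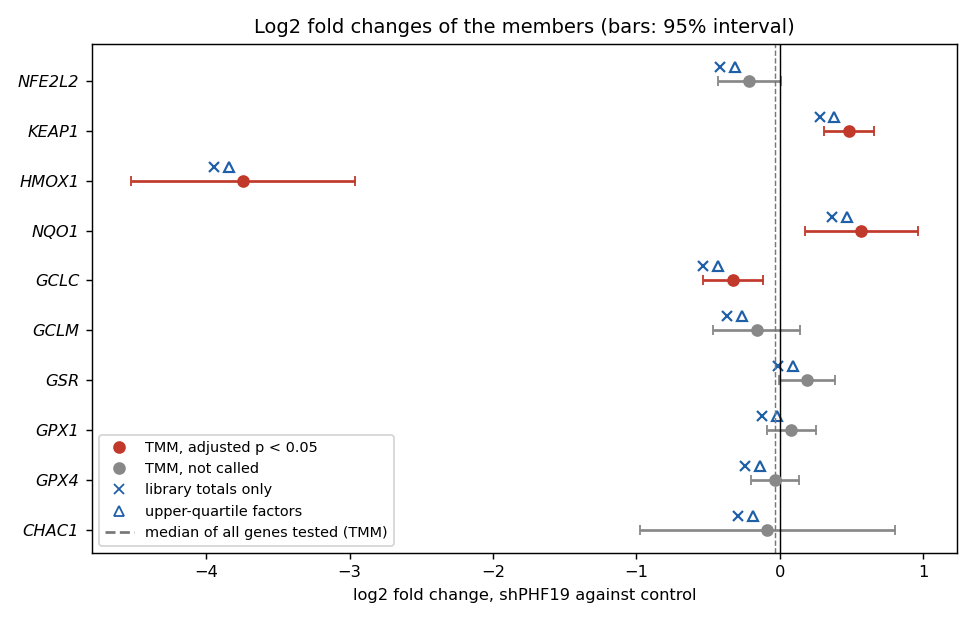
Log2 fold change of each gene (shPHF19 against control) with TMM scaling as a dot with its 95% interval, red where the adjusted p was under 0.05 and grey elsewhere, and the values with library totals only (cross) and upper-quartile factors (triangle) above it; the dashed line is the median of all genes tested. HMOX1 lies at -3.74, apart from the other 9 genes, which lie between -0.33 and 0.57, and both other scalings sit to the left of the dot for every gene.

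Other ATF4-linked genes mostly fell. Of 24 tested genes on a list of ATF4 and its targets, 21 were lower, 1 was higher and 2 did not pass, with a median log2 fold change of -1.36. The called share was 91.7%, beside 60.2% of all genes tested, of which 30.9% were lower. DDIT4, an inhibitor of mTORC1, was at -4.40, the pseudokinase gene TRIB3 at -2.69, the transcription factor gene DDIT3 at -2.68, PPP1R15A, which restores translation after stress, at -2.40 and the asparagine synthetase gene ASNS at -1.12, and each of these fell. DDIT3 shares 413 of its 1307 exon bases with MARS and MBD6 on the opposite strand. ATF4 itself fell by less (-0.33, edgeR adjusted p = 0.000368). The log2 fold changes of DDIT4, TRIB3, DDIT3, PPP1R15A and ASNS all lie below the interval of CHAC1. However, DDIT4 and PPP1R15A were named for their small adjusted p, and ATF4 and the list's highest value (0.29) lie inside that interval. CHAC1 is therefore not set apart from the list by these values. The difference between CHAC1 and the list was not tested. Of the list's genes with a promoter window and a test, 4 held the core shown for CHAC1 and all 4 were lower, and 14 of the 15 without it were lower too.

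Compared per kilobase of merged exon (GENCODE 29), the 10 transcripts spanned a wide range of levels. In control cells GPX1 was highest at 496 ± 47.3 CPM per kb, followed by GPX4 at 197 ± 9.80, KEAP1 at 32.5 ± 2.77 and GSR at 14.9 ± 0.112 CPM per kb (SD, n = 3 throughout). GCLC (7.46 ± 0.538 CPM per kb) and NFE2L2 (7.11 ± 0.391) came next and did not differ beyond their spread. GCLM (2.93 ± 0.471 CPM per kb) and HMOX1 (2.34 ± 0.502) overlapped as well. NQO1 was at 1.67 ± 0.0854 CPM per kb, below each of these in every control library, and CHAC1 was lowest at 0.633 ± 0.203 CPM per kb. In shPHF19 cells HMOX1 had moved to the bottom of the order, at 0.169 ± 0.120 CPM per kb beside 0.596 ± 0.180 for CHAC1, while NQO1 (2.47 ± 0.126) had come close to GCLM (2.62 ± 0.0407). Merged exons are longer than any one transcript, so these values place genes only roughly.

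**Figure D3:**
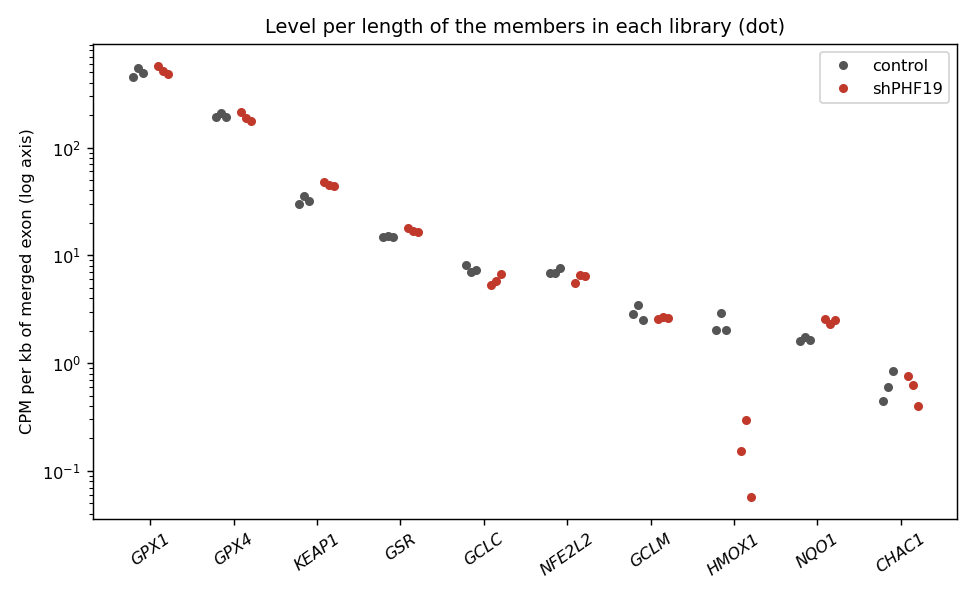
CPM per kilobase of merged exon for each gene and library (1 dot per library, log axis), control in grey and shPHF19 in red, ordered by the control mean. The 10 genes run from GPX1 at 496 to CHAC1 at 0.633 CPM per kb in control cells, and only HMOX1 leaves its place by a wide margin.

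The genes whose profile over the 6 libraries was nearest to that of HMOX1 were SDC3, RASGRF1 and SCN8A, with root mean square differences of 0.187, 0.267 and 0.307 in centred log2 CPM. For NQO1, the gene of the 10 with the largest rise, they were ZC3HC1, TMEM41A and PROSER3 (0.0290, 0.0292 and 0.0305). With 6 libraries in 2 groups, a close profile is foremost a group difference of similar size.

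Partners of NRF2 and KEAP1 moved in both directions. Of 15 tested, 4 were higher, 5 lower and 6 did not pass, a called share of 60% beside 60.2% of all genes, and the median log2 fold change was -0.07. NFE2L1 (NRF1), a relative of NRF2 that drives proteasome genes, fell from 1019 ± 57.6 to 524 ± 24.3 CPM (SD, n = 3; -0.96, edgeR adjusted p = 1.59e-14). SQSTM1, which encodes p62, an autophagy receptor that can draw KEAP1 away from NRF2, fell from 325 ± 9.97 to 171 ± 11.3 CPM (-0.93). DPP3 (1.14) and PGAM5 (1.005), whose proteins bind KEAP1, rose. BACH1, a repressor that competes with NRF2 at the HMOX1 locus, was at 48.9 ± 4.91 and 44.8 ± 5.89 CPM (-0.12, edgeR adjusted p = 0.336), and the small MAF gene MAFG was at -0.068 (edgeR adjusted p = 0.505). With library totals only both BACH1 (-0.33) and MAFG (-0.27) were called lower, and the list then held 3 higher and 8 lower. SQSTM1 shares 105 exon bases with MGAT4B on the opposite strand, MAFG shares 105 with SIRT7 on its own strand, and BACH1 shares 347 with LINC00189 and GRIK1.

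Other known NRF2 targets were, where called, more often higher, with large exceptions. Of 38 listed, 29 were tested, 12 were higher, 4 lower and 13 did not pass (10 and 5 with library totals only), and the median log2 fold change was 0.25. The called share was 55.2%, beside 60.2% of all genes tested. Of the list's calls 75% were higher, beside 48.8% of the calls among all genes. PRDX1 (peroxiredoxin 1) rose from 75.4 ± 4.29 to 358 ± 2.45 CPM (2.25), TXN (thioredoxin) rose by 1.57 and TXNRD1 (thioredoxin reductase) by 0.63 on the log2 scale. TALDO1, the transaldolase gene, rose as well (1.42). SLC7A11, the cystine importer that feeds glutathione synthesis, fell from 62.5 ± 9.27 to 9.39 ± 0.461 CPM (-2.73, edgeR adjusted p = 3.24e-23), and the ferritin heavy chain gene FTH1 fell from 2075 ± 71.2 to 679 ± 19.1 CPM (-1.61; SD, n = 3 throughout). The ferritin light chain gene FTL, at 0.19, was called (edgeR adjusted p = 0.0317) but not with library totals only or upper-quartile factors, nor without control replicate 1 (adjusted p = 0.152) or 3 (0.0880) and without shPHF19 replicate 1 (0.0805) or 2 (0.0817). SRXN1 (sulfiredoxin) was at 0.22 and not called (edgeR adjusted p = 0.0603), but was called without control replicate 2 (0.0245) or shPHF19 replicate 3 (0.0383), and ME1 (malic enzyme) was at -0.27 and not called. PRDX1, SLC7A11 and FTH1 share exon bases with counted genes on the opposite strand, and FTH1, FTL and PRDX1 have near-identical processed copies, so their values are less certain.

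The core TGACNNNGC occurred in the promoter windows of 13 of the 27 listed targets that had one (48.1% of genes, beside 16.1% of all genes with a window). The list was made of genes already known as NRF2 targets, so a raised share is no result of these data. On the other lists the share of genes ran from 0% (haem breakdown) to 35% (ATF4 targets). Among targets with the core, 12 were tested, of which 5 were higher, 0 lower and 7 did not pass. Among targets with a window but no core, 10 were tested, of which 5 were higher, 2 lower and 3 did not pass. Tested targets without a window were not searched and are in neither count. Among these are SLC7A11 and FTH1, which fell, and PRDX1, which rose, so the counts do not describe the whole list. For comparison, 29.4% of all genes tested were higher and 30.9% lower.

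**Figure D4:**
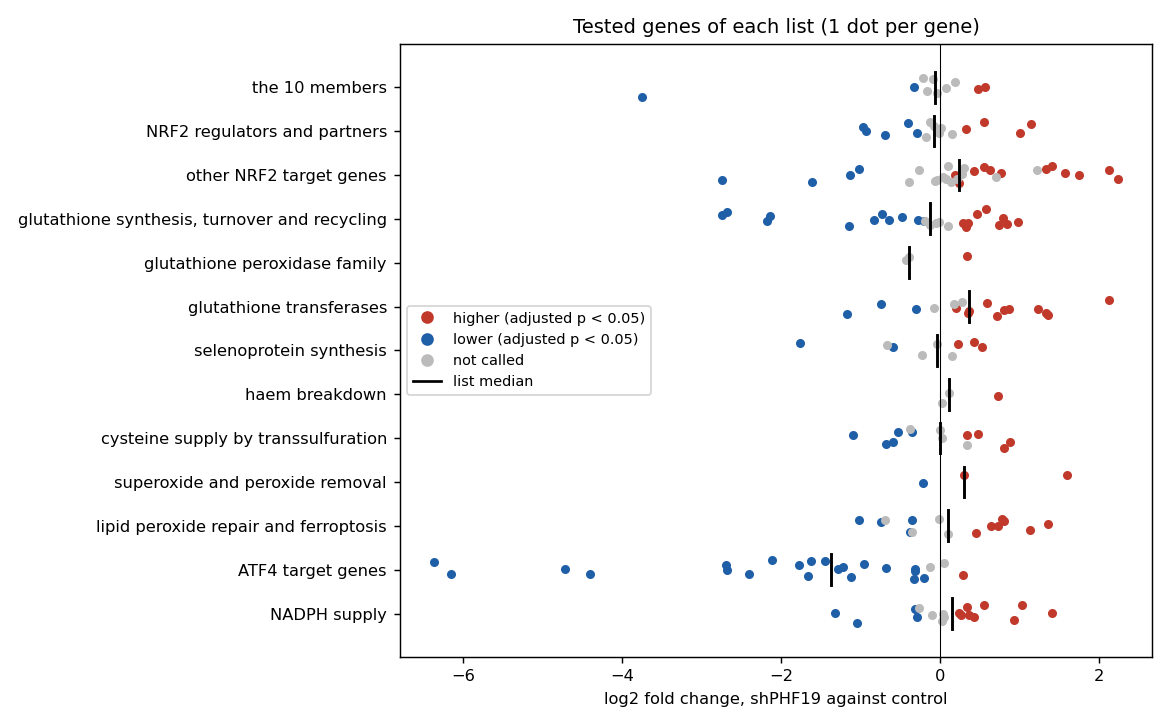
Log2 fold change (shPHF19 against control) of every tested gene on each list, 1 dot per gene, red where called higher, blue where called lower and grey otherwise, with the list median as a black bar. The ATF4 targets lie mostly to the left of 0 (median -1.36), the other NRF2 targets and the glutathione transferases slightly to its right (0.25 and 0.37), and HMOX1 is the lone far-left dot among the 10 genes.

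Genes around glutathione itself moved in both directions. Of 25 tested genes of glutathione synthesis, turnover and recycling, 9 were higher, 11 lower and 5 did not pass (5 and 14 with library totals only, median log2 fold change -0.12). The called share was 80%, beside 60.2% of all genes tested. SLC3A2, the partner chain of SLC7A11 in the cystine importer, fell from 489 ± 40.9 to 222 ± 17.6 CPM (SD, n = 3; -1.14), and the dipeptidase gene DPEP2, which shares 117 exon bases with DUS2 on the opposite strand, fell (-2.17). GSS, which adds glycine in the last step of synthesis, rose from 87.7 ± 8.39 to 131 ± 9.44 CPM (0.58, edgeR adjusted p = 3.91e-07), as did the peptidase gene LAP3 (0.98). CHAC2, the constitutive relative of CHAC1, was at 6.93 ± 0.878 and 9.62 ± 2.03 CPM (0.47, edgeR adjusted p = 0.0284), but its groups overlapped. The CHAC2 call was lost, with an adjusted p above 0.05, without control replicate 3 (0.125), shPHF19 replicate 2 (0.0583) or shPHF19 replicate 3 (0.194). It was also lost by DESeq2 (0.0608), with library totals only (0.218) and with upper-quartile factors (0.0854).

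Cysteine can also be made from methionine by transsulfuration. CBS, which encodes the first enzyme of that route, had at most 2 counts in any library. CTH, which releases cysteine, was at 6.98 ± 0.949 and 8.90 ± 2.20 CPM (SD, n = 3; log2 fold change 0.35, edgeR adjusted p = 0.124), and was called only without shPHF19 replicate 3 (0.54, edgeR adjusted p = 0.0193). Upstream, MAT2A, which makes S-adenosylmethionine, rose (0.88), as did AHCY (0.81). AHCYL1 (-0.53) and the transaminase gene GOT1 (-0.59), which are on the same list but are not upstream steps of this route, fell. MAT2A shares 558 exon bases with GGCX on the opposite strand. The list as a whole held 4 higher and 5 lower of 13 tested (2 and 6 with library totals only, median 0.00). That is 69.2% called, beside 60.2% of all genes tested.

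Enzymes that join glutathione to other molecules were mostly higher. Of 17 tested genes of the glutathione transferase list, 11 were higher, 3 lower and 3 did not pass (8 and 3 with library totals only), with a median log2 fold change of 0.37. The called share was 82.4%, beside 60.2% of all genes tested, of which 29.4% were higher. GSTP1, the pi-class transferase gene, rose from 261 ± 17.3 to 670 ± 38.7 CPM (1.36, edgeR adjusted p = 3.39e-19; SD, n = 3). MGST1, which is anchored in membranes, rose from 7.39 ± 2.15 to 32.4 ± 5.43 CPM (2.14), and GSTM1 (1.33) and GSTM3 (0.87) rose. Gene lists here overlap, so their counts are not separate observations. MGST1 and GSTM1, among others, are also on the list of other NRF2 targets. That list further shares SLC7A11 with glutathione synthesis and TALDO1 with NADPH supply. GSTM1 shares 559 exon bases with GSTM2 on the same strand, and the mu-class genes are close copies, so its value depends on how shared reads were counted.

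Of the remaining glutathione peroxidase genes, 3 of 6 were tested. GPX7, a peroxidase of the endoplasmic reticulum, was at 44.4 ± 2.06 and 56.3 ± 3.52 CPM (SD, n = 3; 0.34, edgeR adjusted p = 0.00328, but 0.237 with library totals only), and GPX2 (-0.39) and GPX3 (-0.42) were near 1 CPM and not called. GPX1 and GPX4 need the placing of selenocysteine, and on the list of selenoprotein synthesis 3 of 9 genes were higher and 2 lower (2 and 5 with library totals only, median -0.04). That is 55.6% called, beside 60.2% of all genes tested. SEPSECS, which makes selenocysteine on its tRNA, fell from 61.5 ± 9.33 to 18.2 ± 1.28 CPM (-1.75, edgeR adjusted p = 1.72e-17) and SEPHS2, which supplies the selenium donor, from 158 ± 6.60 to 105 ± 3.92 CPM (-0.59). Also on that list, SEPHS1 (0.54) and the tRNA methyltransferase gene NSUN2 (0.43) rose.

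NADPH, which GSR needs, comes from several routes. Of 18 tested genes of its supply, 9 were higher, 4 lower and 5 did not pass (5 and 4 with library totals only, median 0.15). The called share was 72.2%, beside 60.2% of all genes tested. Beside TALDO1, IDH2, the mitochondrial isocitrate dehydrogenase, rose from 318 ± 24.4 to 654 ± 49.1 CPM (1.04; SD, n = 3), and MTHFD1 of the folate pathway rose (0.93), whereas the mitochondrial folate enzyme gene ALDH1L2 fell (-1.05). Exons of MTHFD1 overlap ZBTB25 (178 bases) and those of ALDH1L2 overlap C12orf45 (145 bases) on the opposite strand.

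Peroxide and lipid peroxide handling outside the 10 genes changed in parts. SOD1, the cytosolic superoxide dismutase, rose from 105 ± 13.1 to 319 ± 5.85 CPM (1.61, edgeR adjusted p = 1.04e-20; SD, n = 3). SOD2 of mitochondria was at 0.31 and called, but not without control replicate 2 (0.26, edgeR adjusted p = 0.0599), with library totals only (0.11) or with upper-quartile factors (0.21). The catalase gene CAT was at -0.21 and called. That call was lost, with an edgeR adjusted p above 0.05, without control replicate 1 (0.0749) or 3 (0.0632) and without shPHF19 replicate 1 (0.143) or 2 (0.0755). Of 15 tested genes of lipid peroxide repair and ferroptosis, 7 were higher, 4 lower and 4 did not pass (6 and 5 with library totals only, median 0.10). The called share was 73.3%, beside 60.2% of all genes tested. The transferrin receptor gene TFRC (1.36), the squalene synthase gene FDFT1 (1.14), LPCAT3 (0.79), which loads polyunsaturated chains onto phospholipids, and VKORC1L1 (0.64), which reduces vitamin K, rose. LPCAT3 shares 3100 of its 4725 exon bases with EMG1 on the opposite strand. SOD2 shares 1143 bases in all with WTAP on the opposite strand and with another SOD2 entry on its own strand. These values are therefore less certain. The overlaps of AIFM2 (11 bases, H2AFY2) and ACSL4 (78 bases, KCNE5) are short. AIFM2 (FSP1), a backup to GPX4, was at 3.67 ± 1.22 and 2.88 ± 0.347 CPM (-0.35) and not called, and ACSL4, which activates polyunsaturated fatty acids, was at 0.10 and called only without control replicate 1 (0.22, edgeR adjusted p = 0.0356).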

How the data were processed

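The authors deposited whole-number counts per gene symbol, not normalized. The tools named per the submitters' processing notes are HTSeq 0.11.2 and HISAT2 2.1.0, with the build hg38. Annotation and strand setting were not given in the sources used here. Beside the counts, the authors deposited a table of their comparison with mean normalized signal, log2 fold changes with errors, and p-values. Its 5740 rows reach an adjusted p of 0.00993 at most, and 2 of the 10 genes are in it.

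Counts were tested with edgeR 4.0.16 (R 4.3.3): filterByExpr, TMM, a robust quasi-likelihood F test with group as the only term, and Benjamini-Hochberg adjustment over 13014 genes (threshold 0.05). The SE is the log2 fold change over the square root of F, and intervals are 95%. The 13 alternatives used DESeq2 1.42.0, limma-voom (limma 3.58.1), other scalings and filters, a replicate block and leaving out each library. The genes and lists were chosen with earlier results of these data known. Named genes are the 10, PHF19, a fixed set of 30, up to 4 per list with the smallest adjusted p, and monocyte and blast markers. A gene that this rule names is not reported here. Same-numbered libraries did not deviate together (r from -0.164 to -0.00655). On simulated counts for this comparison (12860 genes), 96 of 100 genes changed 2-fold and 72 of 100 changed 1.41-fold were recovered, with 11 false calls. The simulation changed few genes, equally up and down, with a common dispersion and no shift in scaling between groups. In the data 60.2% of genes were called and scaling factors differed by group, so these rates check the code and do not carry over. No pair of replicates was alike within counting noise (chi-square per degree of freedom 4.63 to 11.7). At this depth 3 counts correspond to 0.177 to 0.223 CPM. Positions and exon lengths came from GENCODE 29 (GRCh38) and promoter sequences from RefSeq (GRCh38.p14).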

Additional observations from a re-analysis of the deposited data

How the results depend on the processing

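Over the 13 alternatives, KEAP1, HMOX1, GCLC and PHF19 kept their direction and call. Their log2 fold changes ran from 0.28 to 0.57, -4.44 to -3.33, -0.53 to -0.25 and -2.53 to -2.24. With library totals only, NFE2L2 (-0.42), GCLM (-0.37) and GPX4 (-0.24) became calls, NQO1 (0.36) lost its call, GSR (-0.013), GPX1 (-0.13), FTL (-0.012), BLVRA (-0.089), BLVRB (-0.18) and ACSL4 (-0.10) changed sign, and 0 other glutathione peroxidase genes were called in place of 1. Of all genes tested 2590 were then higher and 5624 lower, in place of 3820 and 4015 (31.5% in place of 48.8% of those called were higher). With upper-quartile factors 3190 were higher and 4778 lower, NFE2L2 was called (-0.32), and GPX1 (-0.022), BLVRB (-0.079) and ACSL4 (-0.00080) were below 0. GSR was called by DESeq2 (0.22). Leaving out 1 library gave log2 fold changes of -0.11 to 0.028 for GPX4, -0.28 to 0.18 for CHAC1, -0.57 to 0.027 for ME1, -0.077 to 0.26 for BLVRA and -0.14 to 0.12 for BLVRB, with 7099 to 7759 genes called in all. Apart from the alternatives' own construction, the cause was not tested. With the replicate block 7307 genes were called in place of 7835 and the 10 held 4 calls as before, while FTL (0.19) and CAT (-0.21) lost theirs; 0 of 6 libraries deviated most like their own number, so the numbers are not taken as pairs. Low counts limit CHAC1 (63 and 53 in all), GPX2 (35 and 24) and GPX3 (68 and 45).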
